A study of Mus musculus with 6 samples.

Results

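Tiparp, the TCDD-inducible poly(ADP-ribose) polymerase gene, and 7 other genes of the PARP family were examined in the mouse suprachiasmatic nucleus (SCN) after light or sham stimulation early in the night. The 8 genes, Tiparp, Parp1, Parp2, Parp3, Parp6, Parp8, Parp9 and Parp14, are among 12393 genes named on the array, and they are read by 13 of its 22626 probe sets, which are groups of short oligonucleotides for 1 transcript or several. The genes were chosen by name, and Tiparp stands among them because the study had selected it on its higher signal after the light pulse on these same arrays. Its light pulse against sham values are therefore given as a description, with no test.

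All mice were adult male C57BL/6 of 2 to 4 months, housed singly in a 14:10 light/dark cycle. The light pulse group received 2400 lux for 30 minutes from 1 hour after lights off, and the sham group a dark pulse of equal length at that hour, followed by killing under dim red light. Brains were collected when the pulse ended, at 1.5 hours after lights off, and the SCN was lifted by laser capture microscopy from 6 sections of 12 μm per mouse. Each of the 3 arrays per group held RNA pooled from 3 mice (18 sections), of which 1 ng was amplified in 2 rounds. Whether a mouse contributed to more than 1 pool is not stated, so errors and p-values describe the spread between these pools. Captured tissue is a mixture of cells, and fewer cells of a type and less RNA per cell cannot be told apart.

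PARP enzymes move ADP-ribose from NAD+ onto proteins. Parp1 and Parp2 build chains of it and, like Parp3, are activated at DNA breaks, while most other members add single units. Tiparp (also PARP7) adds single units, is transcribed in response to the aryl hydrocarbon receptor, a ligand-activated transcription factor related to the clock proteins CLOCK and BMAL1, and restrains that receptor in turn. In liver, PARP1 is known to modify CLOCK in a cycle that follows feeding. Parp9 and Parp14 carry macrodomains, which bind ADP-ribose, and respond to interferon.

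The start of Tiparp is shown because the study looked for CRE and TATA elements in the promoters of light-induced genes, and the start of Parp1 beside it as a member not chosen for its response. Both windows run from 250 bases before to 50 bases after the annotated start, 300 bases on the plus strand of GRCm38.p6 (RefSeq), at chr3:65528197-65528496 for Tiparp and chr1:180568641-180568940 for Parp1. Capitals mark GCGTG, the core bound by the aryl hydrocarbon receptor, read on either strand.
Tiparp: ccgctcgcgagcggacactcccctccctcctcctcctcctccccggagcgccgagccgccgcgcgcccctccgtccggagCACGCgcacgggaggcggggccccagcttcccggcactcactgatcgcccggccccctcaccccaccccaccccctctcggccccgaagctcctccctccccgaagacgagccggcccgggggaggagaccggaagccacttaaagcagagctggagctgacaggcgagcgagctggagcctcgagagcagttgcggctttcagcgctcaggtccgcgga
Parp1: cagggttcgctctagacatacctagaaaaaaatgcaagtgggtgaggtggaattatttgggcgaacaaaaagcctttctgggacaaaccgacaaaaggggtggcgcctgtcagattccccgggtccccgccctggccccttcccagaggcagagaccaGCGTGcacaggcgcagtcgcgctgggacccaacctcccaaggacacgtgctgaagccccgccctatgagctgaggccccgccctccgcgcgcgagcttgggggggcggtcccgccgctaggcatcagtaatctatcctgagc
The full CRE (TGACGTCA), the CRE half-site (TGACG) and TATAA were searched on both strands too, the half-site lying within the full one, and none occurred in either window. Of all 32851 promoter windows of this length, 1.79% held the full CRE, 20.8% the half-site, 24.9% TATAA and 32.4% GCGTG. A window was at hand for 6 of the 8 genes (not Parp9 or Parp14), and all 6 held GCGTG, from 1 site in Tiparp, Parp1, Parp2 and Parp3 to 7 in Parp6. Parp2 and Parp8 had 1 half-site each, Parp2 alone had TATAA, and none of the 6 had the full CRE. A match is a run of letters and no evidence of binding, and elements farther upstream lie outside these windows. The study searched a longer stretch, counted from the start codon, with a matrix-based program. For Tiparp it reported a conserved CRE and a TATA box. The search here differs in stretch, in starting point and in matching exact letters only, so it does not bear on those elements.

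Signals are Affymetrix MAS5 values in arbitrary units. A probe set was kept for testing when at least 3 of its 6 signals reached 120, which left 10266 probe sets. Log2 signals were compared with limma and p-values adjusted by the Benjamini-Hochberg method over all of them. All 5 SCN neuron markers were kept. Light pulse replicate 3 stood apart, with a signal of 110323 for Ttr, a choroid plexus marker, against at most 295.6 on the other 5 arrays, so that the summed signal of the 3 measured choroid plexus markers (of 5 listed) was 113.5 to 110543 in the light pulse group and 173 to 301.6 in the sham group. None of the measured markers was at 0. Values without that array are given beside the kept members and, for the lists, where they moved by over 1.5 times.

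Of the 13 probe sets, 6 were kept, and they covered 5 of the 8 genes. These were 1 each for Tiparp, Parp1, Parp2 and Parp6 and both for Parp3. For Parp8, Parp9 and Parp14 no probe set was kept, so that their signals lie near the lower end of the scale and their ratios carry wide errors.

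Tiparp signal was higher after the light pulse at the kept probe set, 1426721_s_at. After the sham pulse it was 515, 375.5 and 490.7, and after the light pulse 989.8, 1333 and 995. The groups did not overlap, and the lowest light pulse signal was 1.92 times the highest sham signal. The mean went from 460.4 ± 74.5 (SD, n = 3) to 1106 ± 197 (SD, n = 3), a ratio of geometric means of 2.40 (95% confidence interval 1.55 to 3.72), or 1.26 as a log2 fold change (standard error 0.29). Among the 10266 kept probe sets, 150 had a larger log2 fold change. The groups separated in this direction for 5.62% of the kept probe sets. Since Tiparp was picked on this contrast, nothing is read from its place among them. With each array left out in turn the log2 fold change stayed between 1.12 and 1.35, and without light pulse replicate 3 it was 1.33.

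The other Tiparp probe sets did not follow the kept one. At 1452160_at the signals were 64.7, 58.8 and 35.4 after the sham pulse and 149.7, 11.8 and 15.4 after the light pulse, so that light pulse replicate 1 was the highest of the 6 arrays and the other light pulse arrays the lowest. At 1452161_at they were 32.2, 24 and 41.7 after the sham pulse and 22, 9.2 and 4.7 after the light pulse, all light pulse arrays lying below all sham arrays. Only 1 of these 12 signals reached 120. Their log2 fold changes, from a fit of all probe sets, were -0.77 (95% confidence interval -3.13 to 1.59) and -1.69 (-4.17 to 0.79), both intervals including 0. The annotation derives all 3 Tiparp probe sets from the same sequence record. By Affymetrix naming the ending _s_at marks a probe set whose probes can match more than 1 transcript, and the share of its signal that comes from Tiparp was not tested. On these arrays the light pulse against sham difference in Tiparp thus rests on 1 probe set of 3. The study also measured its array candidates by quantitative real-time PCR. It listed Tiparp with the genes that were higher after the light pulse by that method. Those PCR values are not among the signals used here.

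**Figure D1:**
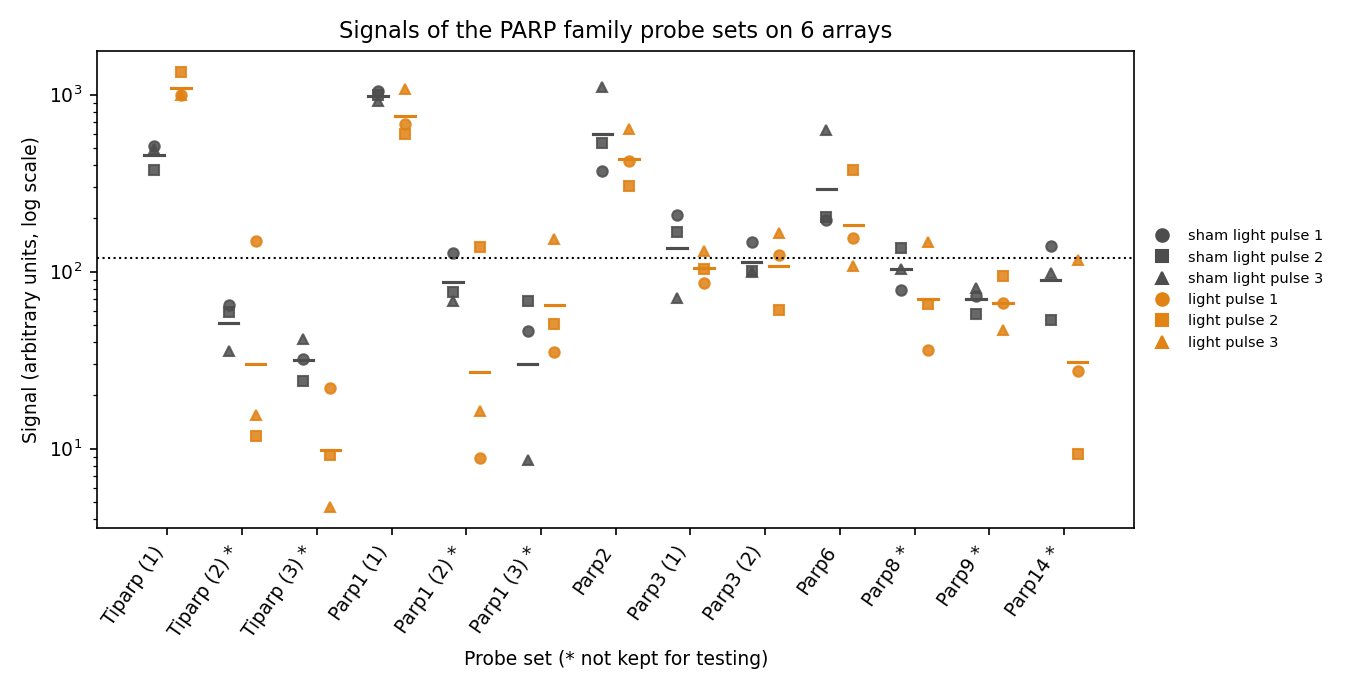
Signals in arbitrary units (log scale) of the 13 probe sets of the 8 PARP family genes, with 1 point per array, 3 sham light pulse (grey) and 3 light pulse (orange); horizontal bars are geometric means, numbers in brackets tell probe sets of a gene apart, an asterisk marks those not kept, and the dotted line is the floor of 120. The light pulse points lie above the sham points at Tiparp (1), from 989.8 to 1333 against 375.5 to 515, and overlap them at the 5 other kept probe sets.

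No kept probe set of Parp1, Parp2, Parp3 or Parp6 passed the test. Limma called 0 of these 5 at an adjusted p under 0.05, against 0.0682% of all kept probe sets (7 of 10266), and 0 of the 5 had an unadjusted p under 0.05 by limma or by Cyber-T, beside 443 and 440 of the 10266. Their adjusted p ran from 0.960 to 0.989. For 0 of the 5 did the groups separate in either direction, where they separated downward for 4.46% of the kept probe sets. The 5 log2 fold changes, 2 of them of Parp3, lay below 0, where 5153 of the 10266 kept probe sets lay above 0. They ran from -0.67 to -0.08 with a median of -0.37, beside a median of 0.00 over the 6700 genes with a kept probe set. The 95% confidence interval of each of the 5 included 0.

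The members activated at DNA breaks were Parp1, Parp2 and Parp3. Parp1, the main maker of poly(ADP-ribose) chains, had signals of 1043.9, 995.6 and 915.2 after the sham pulse and 682.3, 597.2 and 1072.8 after the light pulse at 1435368_a_at. The sham arrays lay close together, and 1 light pulse array exceeded them all while the other two lay below. Its log2 fold change was -0.37 (standard error 0.30, 95% confidence interval -1.02 to 0.27), and the interval leaves room for a fall to 0.49 of the sham level or a rise of 1.21-fold. Without light pulse replicate 3 the value was -0.62, and it too was not called.

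Both remaining Parp1 probe sets were low. At 1422503_s_at the signals ran from 68 to 128 after the sham pulse and were 8.8, 137 and 16.2 after the light pulse (log2 fold change -1.70, standard error 1.07). At 1422502_at they ran from 8.6 to 68.5 and from 34.9 to 151.9 (1.10, standard error 1.07). The 3 probe sets of Parp1 thus gave log2 fold changes of both signs. The largest difference between a pair was -2.80, with p = 0.20 in an exact permutation test over the 6 arrays, two-sided, in a design whose smallest p is 0.10. Comparisons of the kept probe set with these gave 0.40 and 0.20 in the same exact permutation test, without adjustment for the 4 pairs tested in Parp1 and Parp3.

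Parp2, which also builds chains, had signals of 371.8, 531.2 and 1106.9 after the sham pulse and 420.9, 305.6 and 640.8 after the light pulse. The groups overlapped, and sham replicate 3 was the highest array. The log2 fold change was -0.47 (standard error 0.41). With 1 array left out it ran from -0.82 without sham replicate 1 to -0.03 without sham replicate 3, and it was -0.75 without light pulse replicate 3.

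Parp3, a break-activated enzyme that adds single units, had both probe sets near the floor, with 3 of 6 signals at 120 or above at each. At 1426210_x_at the signals were 208.2, 167.5 and 71.3 after the sham pulse and 85.7, 103 and 130.6 after the light pulse. At 1451969_s_at they were 147.7, 100.2 and 99.9, and then 124.5, 60.5 and 165.1. Groups overlapped at both, and the log2 fold changes were -0.37 (standard error 0.62) and -0.08 (standard error 0.64). They differed by -0.29 (exact permutation test over the 6 arrays, two-sided, p = 0.80), in a design whose smallest p is 0.10. Without light pulse replicate 3 the log2 fold changes were -0.53 and -0.39, and that of 1451969_s_at turned above 0 without sham replicate 1 (0.10) or light pulse replicate 2 (0.33). Both endings, _x_at and _s_at, mark probe sets that may read related sequences.

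**Figure D2:**
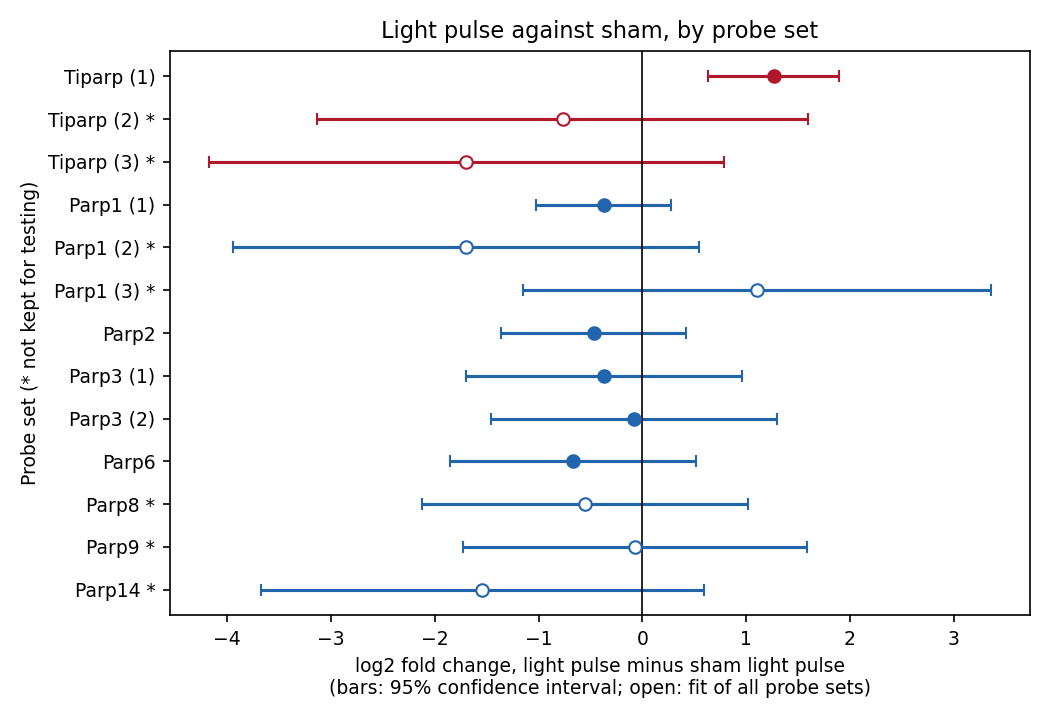
Log2 fold change, light pulse minus sham light pulse, for each of the 13 probe sets, with 95% confidence intervals from limma (3 arrays per group); filled points were kept for testing, open points come from a fit of all probe sets, Tiparp is in red and the other genes in blue. Tiparp (1), at 1.26 with an interval of 0.63 to 1.89, was selected on this contrast and is shown as a description, and the intervals of the 10 probe sets of the other 7 genes include 0.

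Parp6 and Parp8 are related enzymes that add single units, and Parp6 is known to act in the growth of neuronal dendrites. Parp6 had signals of 196.2, 202.6 and 628.8 after the sham pulse and 155.6, 373.2 and 107.3 after the light pulse. As for Parp2, sham replicate 3 was the highest array. Parp6 had a log2 difference of -0.67 (standard error 0.55, 95% confidence interval -1.85 to 0.52). With 1 array left out it ran from -1.18 without light pulse replicate 2 to -0.12 without sham replicate 3, and it was -0.28 without light pulse replicate 3. Parp8 was not kept, with signals of 78.4, 135.6 and 102.9 against 36.2, 65.4 and 147.3 and a difference of -0.55 on the log2 scale (standard error 0.75) from the fit of all probe sets.

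Parp9 and Parp14, the macrodomain members, were not kept either. Parp9, which works with the ubiquitin ligase DTX3L, had signals of 73.2, 57.6 and 80.4 after the sham pulse and 66.5, 93.9 and 46.8 after the light pulse, none of them reaching 120. Its log2 fold change was -0.07, with a 95% confidence interval from -1.72 to 1.58. Parp14, a cofactor of STAT6 signaling, had signals of 140.1, 53 and 98.7 and then 27.4, 9.3 and 116.4, a log2 difference of -1.54 (standard error 1.02). Light pulse replicate 3 was the highest of its group for Parp14 and the lowest for Parp9.

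Genes of the surrounding pathway were read from 7 lists, with the kept probe set of highest mean log2 signal standing for each gene. Of 77 listed symbols 54 were measured and 28 had a kept probe set. Limma called 0 of the 28, and 0 had an unadjusted p under 0.05 by limma or Cyber-T, where 277 of 6700 genes had one by limma and 284 by Cyber-T. The groups separated for 2 genes upward and 2 downward, against 385 and 293 of the 6700. The 28 had 17 log2 fold changes above 0, beside 3359 of the 6700, and a median of 0.12.

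The aryl hydrocarbon receptor pathway, which drives Tiparp transcription, was mostly below the floor, with 2 of 10 measured genes kept. Ahr, the receptor itself, had signals of 352.7, 276.6 and 449.5 after the sham pulse and 252.9, 269 and 126.9 after the light pulse. The light pulse arrays all lay below the sham arrays, and the log2 difference of -0.78 (standard error 0.40) was not called by limma (adjusted p = 0.960). At the other Ahr probe set, 1450695_at, which was not kept, the groups overlapped, with 100.7, 39.1 and 34.7 and then 43.6, 3.5 and 169.8. The chaperone gene Hsp90aa1 had 0.21 (standard error 0.18). The median was -0.28 over both genes, and 0.23 over the 10 genes with no filter. Without light pulse replicate 3 it was -0.12. Cyp1a1, the classic target of the receptor, named outside the rule for list genes, was not kept. Its signals were 28.5, 32.3 and 11.5 after the sham pulse and 41.3, 8.8 and 49.5 after the light pulse (log2 fold change 0.26). It does not stand for Cyp1a2, Cyp1b1, Nqo1, Ahrr and Aldh3a1, also not kept. Their log2 fold changes had both signs, from -0.73 to 2.00 (both at Cyp1b1 probe sets), and the groups overlapped at each. Arnt, also named outside that rule, was not kept either. At 1425064_at its signals were 42.3, 30.9 and 15.9 and then 46.8, 43 and 75, all light pulse arrays above all sham arrays. The groups overlapped at its other probe set, 1421721_a_at.

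Other PARP enzymes were kept in 2 of 4 measured cases, with a median log2 fold change of 0.08. It was 0.05 without light pulse replicate 3, and ran from 0.04 to 0.18 with 1 array left out. On the log2 scale Tnks2, a tankyrase, differed by 0.33 (standard error 0.32) and Parp12, an interferon-responsive member, -0.16 (standard error 0.32). Among the ADP-ribose hydrolases, which remove the modification, 4 of 5 measured genes were kept, 3 lay above 0 and the median was 0.21, or 0.08 without either sham or light pulse replicate 3. At 1432431_s_at Macrod2 signals were 148.2, 170.2 and 174.7 after the sham pulse and 210.7, 187.2 and 277.7 after the light pulse, without overlap. The log2 difference was 0.44 (standard error 0.41). At its other kept probe set, 1453025_at, the groups overlapped, with 141.6, 144.8 and 181.7 and then 172.9, 113.5 and 388 (log2 difference 0.34, standard error 0.51). Macrod1 had 0.35 (standard error 0.32), and Parg, which cuts poly(ADP-ribose) chains, had 0.07 (standard error 0.33). Of the partners of poly(ADP-ribose) in repair and signaling 8 of 9 measured genes were kept, 5 lay above 0 and the median was 0.12. It ran from -0.02 without sham replicate 3 and 0.01 without light pulse replicate 3 to 0.19 without light pulse replicate 1. Lig3, a DNA ligase, had 110.9, 159.1 and 144.6 and then 215.1, 161.7 and 170.1, also without overlap (log2 difference 0.40, standard error 0.47). At the other Lig3 probe sets, none of them kept, the groups overlapped. The repair polymerase Polb had -0.13 (standard error 0.28) and Rnf146, a ubiquitin ligase that reads the chains, 0.03 (standard error 0.26). None of these was called.

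NAD+, the substrate of the family, is made and processed by 8 measured genes of the list, of which 5 were kept, 1 lay above 0 and the median log2 fold change was -0.35, or -0.15 without light pulse replicate 2. Nadk, the NAD kinase, had 661.8, 624.7 and 748.4 after the sham pulse and 566.3, 590.9 and 446.7 after the light pulse, without overlap. Its log2 difference was -0.35 (standard error 0.29). At its other probe set, which was not kept, the groups overlapped. The list's kept members of highest signal were Nnt, a mitochondrial transhydrogenase, at -0.42 (standard error 0.42) and Nadk. Nampt, the rate-limiting enzyme of NAD+ salvage, named after its values were seen, had -0.34 (standard error 0.33). Of the other NAD+ consumers 4 of 6 measured genes were kept, 3 lay above 0 and the median was 0.16. With 1 array left out this median ran from -0.01 (sham replicate 2) and 0.03 (light pulse replicate 1) to 0.35 (sham replicate 3), 0.40 (light pulse replicate 3) and 0.41 (sham replicate 1). Sirt3, a mitochondrial deacylase, had 0.19 (standard error 0.30) and Sirt1, a nuclear deacetylase, -0.23 (standard error 0.48). None of these was called.

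Interferon-responsive genes were kept in 3 of 12 measured cases, all 3 above 0, with a median of 0.20 that became 0.93 over the 12 genes with no filter. Without light pulse replicate 1, 2 or 3 the median was 0.69, 0.76 or 0.35, and without sham replicate 2 it was 0.32. Irf1, a transcription factor of the response, differed by 0.10 on the log2 scale (standard error 0.42). Ifit3 had signals of 243.3, 194 and 216.4 after the sham pulse and 126, 115.3 and 1066.3 after the light pulse, the last on light pulse replicate 3. That array also had the highest signals of Ifit1 (389.6, against at most 92.3 on the others), Usp18 (279.2 against 59.6) and Rsad2 at 1436058_at (676.9 against 129.9), all 3 named after their values were seen. Of the 12 measured genes 6 had their highest signal on that array and 6 on another. Irf1 and Irf7 had their lowest light pulse signals there, 158.6 and 118.7, and Oas1a stood at 17.6. Of the other Rsad2 probe sets, 1421009_at also had its highest signal of all there, 101.7, and 1421008_at its lowest, 3.6. On the same array Parp14 stood at 116.4, Parp9 at 46.8 and Parp12 at 538.8, within the range of the sham arrays for Parp14 and Parp12 and below it for Parp9. The part of the interferon-responsive genes in the values of these members was not tested.

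**Figure D3:**
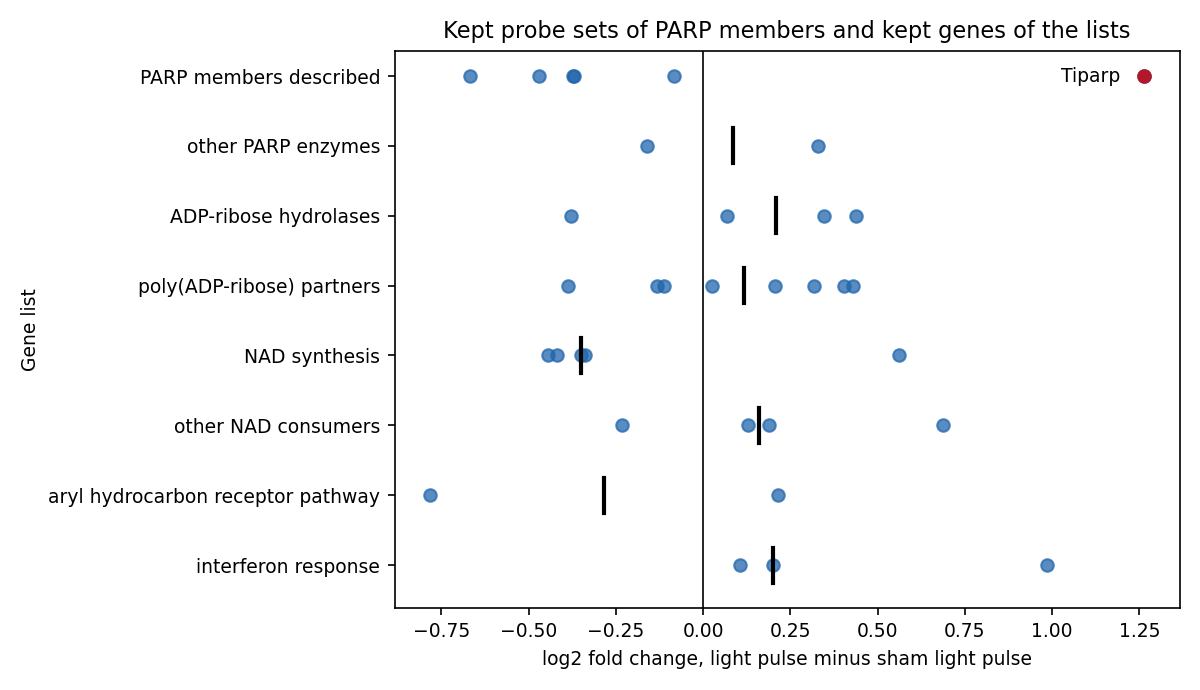
Log2 fold changes, light pulse minus sham light pulse, of the 6 kept probe sets of the PARP members (top line) and of the kept genes of 7 lists, with 1 point per probe set or gene and a vertical bar at the median of each list. Tiparp, at 1.26, was chosen for its value, and the genes of the lists lie between -0.78 (Ahr) and 0.98 (Irf7).

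The genes whose profile over the 6 arrays lay nearest to that of the kept Tiparp probe set were 2810002D19Rik, Notch1, Ski, Phldb1 and Fads2. Nearness was the root-mean-square difference of log2 signals, each centred on its own mean, over 6699 other genes, whose median was 0.76. It was 0.16 for 2810002D19Rik, 0.18 for Notch1, a cell surface receptor, 0.19 for Ski, a corepressor of SMAD signaling, and 0.22 for both Phldb1 and Fads2, a fatty acid desaturase. Notch1 had signals of 129.1, 82.5 and 123.1 after the sham pulse and 189, 245.5 and 191.1 after the light pulse. Ski had 146.1, 127.3 and 130.6 and then 257.6, 285.6 and 269.3. Sham replicate 2 was the lowest array for Tiparp and all 5 genes, and light pulse replicate 2 the highest for all but Fads2. The genes were selected on the arrays described, so their separation between groups is part of the choice.

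**Figure D4:**
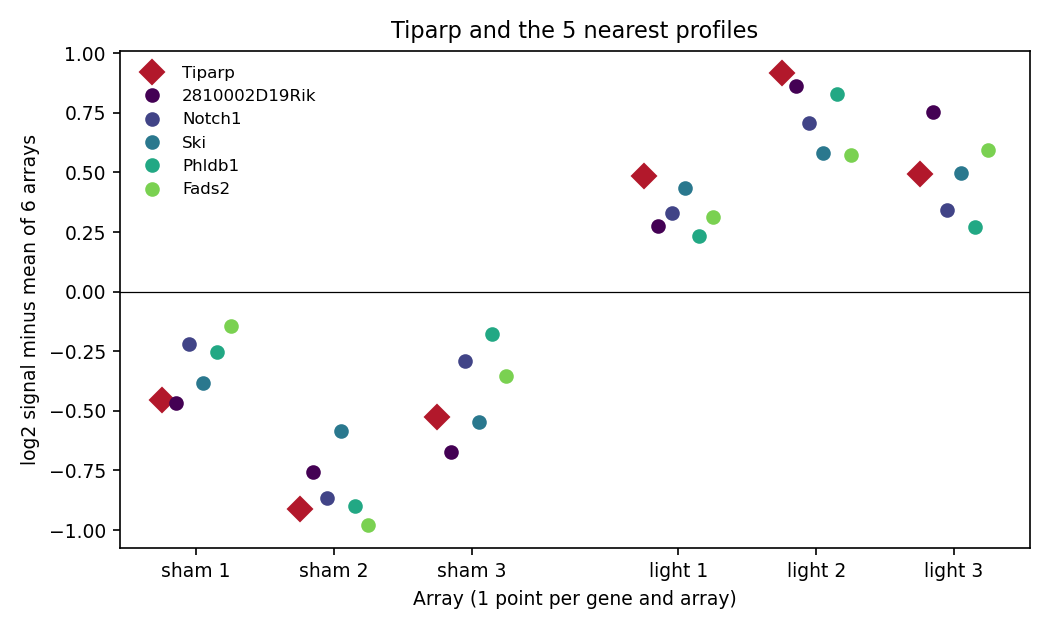
Log2 signal minus the gene's mean of 6 arrays for Tiparp (red diamonds) and the 5 genes with the nearest profiles (circles), on 3 sham light pulse and 3 light pulse arrays, with 1 point per gene and array. All 6 genes lie below 0 on the sham arrays and above 0 on the light pulse arrays, as the choice of near profiles implies.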

How the data were processed

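RNA from 3 light pulse and 3 sham light pulse pools was hybridized to Affymetrix Mouse 430A 2.0 arrays. The authors obtained the deposited intensities, 1 per probe set, with Affymetrix MAS5 (so named in the submitters' processing notes) with all arrays set to a like mean signal. Present calls were not used here. Probe sets were named from the platform annotation, and only the 20380 of 22626 with 1 gene symbol were named, while tests covered probe sets with or without a symbol. The symbols of the 8 genes matched the current mouse gene table.

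Log2 signals with no offset were compared with limma 3.58.1 in R 4.3.3 (lmFit, eBayes with an intensity trend, two-sided) over the 10266 probe sets whose signal of rank 3 among 6 arrays was at least 120. That floor stood in for the study's present calls and was set to leave a like number of probe sets. Benjamini-Hochberg adjustment covered all of them, with a threshold of 0.05. The study's Cyber-T test was rewritten from its description (window of 101, prior weight of 10). The fits were tested on simulated data. Likeness of profiles was the root-mean-square difference of centred log2 signals, and the 5 nearest genes were named. Of each gene list, called genes, or else the 2 kept genes of highest mean signal, and any kept gene whose groups separated were named. Some genes beyond this rule are named too. The members, lists and motifs were chosen with earlier results of these data known. Promoter sequences came from RefSeq (GRCm38.p6). Replicate numbers were shared by the groups, and same-numbered arrays deviated with correlations of 0.10, -0.20 and -0.13, so they were not treated as pairs. Alternatives were no filter, a floor of 500, an offset of 50, quantile normalization, equal 75th percentiles, no trend, Cyber-T, a replicate block, only probe sets ending in _at, and each array left out. Array signals give no depth, and 3 arrays per group limit the precision.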

Additional observations from a re-analysis of the deposited data

How the results depend on the processing

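Tiparp was not tested, and none of the other members gained a call under any alternative. The count of called probe sets of Parp1, Parp2, Parp3, Parp6 and, with no filter, Parp8, Parp9 and Parp14 was 0 under all 9 alternatives and with each array left out. The count over the pathway lists was 0 too. Fewer member probe sets were tested under 2 of the alternatives. At the floor of 500 these were 1 each of Parp1 and Parp2, and with probe sets ending in _at alone only that of Parp2. The log2 fold change of Tiparp ran from 1.18 (offset of 50) to 1.31 (quantile normalization) over 8 alternatives and from 1.12 to 1.35 with 1 array left out. It had no value over probe sets ending in _at alone, where its kept probe set drops out. With the replicate number as a block (replicate block) Tiparp stayed at 1.26 and 0 of the other members were called. Calls over all probe sets went from 7 to 6 with that block, and to 4 without the intensity trend. Same-numbered arrays did not deviate together. The second Parp3 probe set changed direction without sham light pulse replicate 1 (0.10) and without light pulse replicate 2 (0.33), and ran from -0.39 to 0.33 with 1 array left out. The difference between the Parp3 probe sets kept its sign, from -0.69 to -0.04 with 1 array left out, a check added after the data were seen. The interferon list had no value at a floor of 500. List medians moved by more than their spread between replicates in 10 cases of the alternatives and 7 with 1 array left out. No alternative moved the median of all probe sets tested by over 0.07. Of the 13 member probe sets 7 fell under the floor, and 3 arrays per group limit the precision of the rest.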
